A study of Mus musculus with 16 samples.

Results

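The colony-stimulating factor genes and their receptors are 9 mouse genes, Csf1, Il34, Csf2, Csf3, Csf1r, Csf2ra, Csf2rb, Csf2rb2 and Csf3r. They were taken by exact symbol from the gene annotation deposited with a study of macrophages, in which 9 of 50578 genes carry these names. Each symbol had 1 gene model, and the 9 gene IDs were paired with the same symbols in a separate gene table. The study made 16 libraries from macrophages that had been raised from mouse bone marrow, here over 7 days with M-CSF, the protein made from Csf1, at 50 ng/ml and with the medium renewed on day 3. Every group therefore received the product of a gene described here. The RNA-seq libraries came from wild-type C57BL/6 mice, 3 treated with lipopolysaccharide (LPS, a component of Gram-negative bacterial membranes) and 3 untreated. The ribosome profiling libraries, which sequence the stretches of mRNA covered by ribosomes and were made with cycloheximide per their titles, also came from wild-type C57BL/6 mice, 2 with LPS and 2 untreated. The RiboTag libraries came from mice carrying LysM-Cre, which drives recombination in myeloid cells, and the RiboTag allele, which tags a ribosomal protein; 2 were untreated, 2 had 6 h of LPS and 2 had 24 h of LPS. For the RNA-seq and ribosome profiling libraries the labels do not say which LPS duration was used. The file analysed holds positions of gene parts and 0 columns of values per sample, so library values were not analysed here, macrophage markers were not checked, and nothing is said of a response to LPS.

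Colony-stimulating factors are secreted proteins that make blood progenitors survive, divide and mature. M-CSF and the cytokine IL-34, the product of Il34, both bind the tyrosine kinase receptor encoded by Csf1r, on which most tissue macrophages depend. GM-CSF (Csf2) binds a specific alpha chain (Csf2ra) that signals through a beta chain (Csf2rb) shared with IL-3 and IL-5, while in mice Csf2rb2 encodes a second beta chain, used by IL-3 only, and G-CSF (Csf3) binds the receptor encoded by Csf3r on neutrophils and their precursors.

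The sequences that tie a pair of these genes together are those of microRNA-7676, because a copy of its gene lies inside the last coding exon of each beta chain gene. The mature sequences below are RefSeq's, on build GRCm38.p6, written 5′ to 3′ with the seed (bases 2 to 8, the part that pairs with targets) in capitals.
mmu-miR-7676-5p: aGGGCAGUaugauggccucugau
mmu-miR-7676-3p: uCCGGUGCucacucugcccaca
The 5p sequence is the same at chr15:78348599-78348621 (plus strand, in Csf2rb) and chr15:78284827-78284849 (minus strand, in Csf2rb2). The 3p sequence is likewise the same at chr15:78348639-78348660 (plus strand) and chr15:78284788-78284809 (minus strand). Over the whole hairpins, of 62 bases each, 0 positions differ. The 2 seeds differ from each other, and 0 other mature microRNAs among the 1679 names in the table share either of them.

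Promoter windows from 250 bases before to 50 bases after the RefSeq start were at hand for 5 of the 9 genes. A deposited start equalled the RefSeq start for Csf1 and Csf2ra. Among transcripts with a complete coding sequence, the nearest deposited start lay 118 bases downstream of it for Csf2rb2 and 232 bases downstream for Csf2, and for Csf3r the offset was -109, that is, upstream. The Csf2ra window had the most CG pairs, with 23 and a GC content of 65.3%, followed by Csf1 with 16 and 58.7% and Csf3r with 9 and 60.7%. Csf2 and Csf2rb2 had 3 CG pairs each, with 56.7% and 55.0% GC, against medians of 7 CG pairs and 52.7% GC over all 32851 windows in the table. Shown next as examples are 3 matches to known regulatory letters that lie upstream of the RefSeq start, with the letters matched in capitals.
Csf1, NF-kappaB letters: cgggccttgaGGGAAAGTCCctaggggcca
Csf2ra, CRE letters: cccgcccccggTGACGTCAccgggccccac
Csf3r, PU.1 letters: ctccttcctgaGAGGAAGgggctgtctatg
These are chr3:107760605-107760634 (minus strand), chr19:61228492-61228521 (minus strand) and chr4:126024562-126024591 (plus strand), build GRCm38.p6, and the matches begin at -155, -92 and -86 from the RefSeq start. The Csf3r match, from 126024573, lies downstream of the deposited start of transcript Csf3r-001 at 126024550.

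Motifs were searched on both strands of the 5 windows, and the set was chosen after the sequences were seen. The CRE letters TGACGTCA, known from cyclic AMP-responsive genes, were in 1 of 5 windows (Csf2ra), against 1.79% of all windows. The letters GGGA followed after 4 bases by CC, a loose form of the NF-kappaB motif, were in 3 of 5 (Csf1, Csf2 and Csf3r), against 20.7%. The Csf1 window held an overlapping match to these letters on each strand at the place shown. The letters GAGGAAG, bound by the myeloid factor PU.1, were in 3 of 5 (Csf2ra, Csf2rb2 and Csf3r), against 13.6%. In Csf2ra they occurred in tandem, beginning at -14 and -8 and sharing 1 base. The letters TTGCNNAA (C/EBP) were in 1 of 5 (Csf2), against 10.8%, and TTCNNNGAA (the GAS site of STAT proteins) in 1 of 5 (Csf2rb2), against 8.30%. The AP-1 letters TGANTCA were in 0 of 5, against 7.81% of all windows. For the TATA box, TATAAA, the count was likewise 0 of 5, against 13.6%. The deposited starts of Csf2 and Csf2rb2 lie downstream of their windows, so the bases just before those starts were not searched. No match to one motif overlapped a match to another in the 5 windows, and a match is a run of letters, not a measured site.

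Among the ligands, Csf1 had the most varied set of transcripts. Its gene, on chromosome 3 (minus strand), spans positions 107741048 to 107760469 (build mm10 throughout) and has 7 transcripts, more than 82.0% of protein-coding genes with a complete coding sequence (CDS). A CDS counts as complete where the annotation gives both its start and its stop codon, and lengths in codons leave out the stop codon. Of the 7 transcripts, 6 have a CDS, 4 have a complete one and 1 is a retained intron form. Csf1-001 and Csf1-002 encode the same 552 codons. Csf1-004 begins and ends its CDS at the same codons but has 257 codons, and Csf1-006, which starts 9490 bases further downstream, has 163.

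The difference between the 552-codon and the 257-codon forms lies in a single exon. Exon 6 is 1016 bases in Csf1-001 and holds 61.4% of its CDS, while in Csf1-004 it is 131 bases. Both forms end this exon at the same base, so the short one uses a splice acceptor 885 bases further in, which removes 295 codons and keeps the reading frame. The long acceptor is used by 4 Csf1 transcripts and the short one by 2. M-CSF is known to be made as a soluble, a proteoglycan and a membrane-bound protein. Which transcript gives which of these forms was not examined here.

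**Figure D1:**
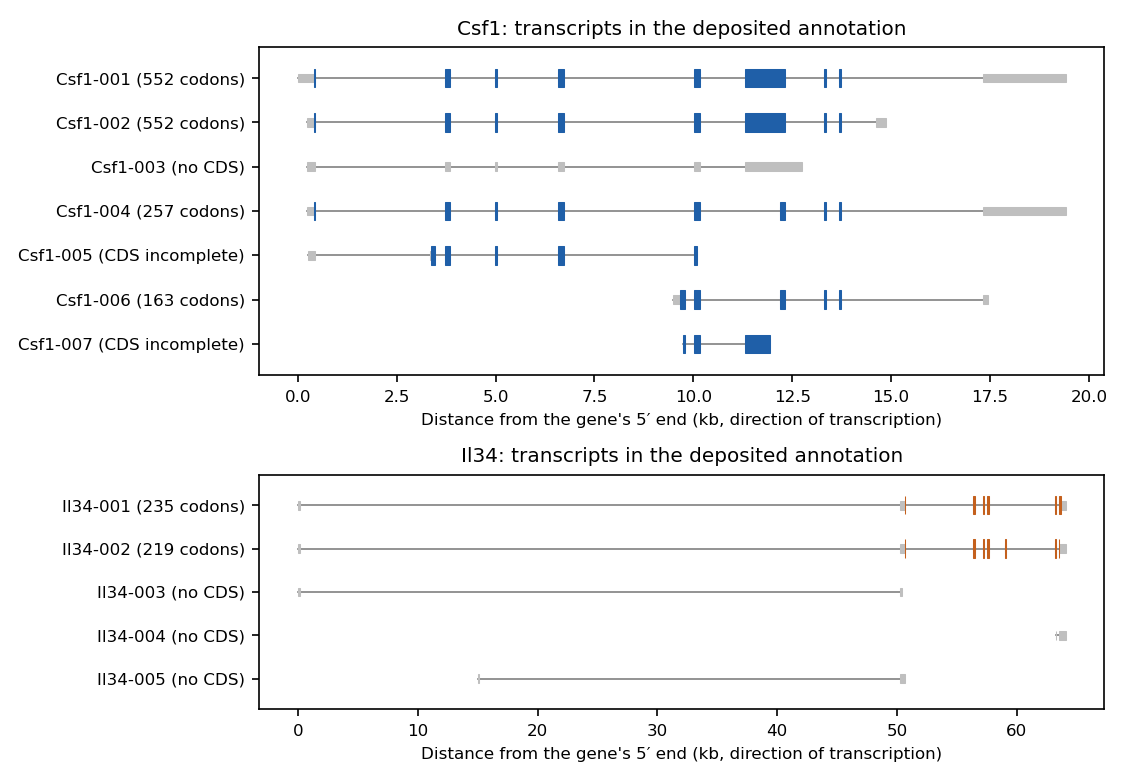
Transcripts of Csf1 (top, 7) and Il34 (bottom, 5) drawn to scale along the distance from each gene's 5′ end in kb; thick coloured boxes are CDS, thin grey boxes are untranslated or non-coding exons and lines are introns. The long sixth exon marks the 552-codon forms of Csf1, and a first intron of 50083 bases takes up most of Il34.

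The end of the Csf1 message also comes in alternative forms that leave the protein as it is. Csf1-001 and Csf1-004 end in an exon of 2098 bases, whereas Csf1-002 ends in another of 246 bases lying 2449 bases before it. The 3′ untranslated region is 2111 bases in Csf1-001 and 259 bases in Csf1-002. The stop codon sits 13 bases before the last intron, so that this intron lies within the 3′ untranslated region. That made Csf1 the 1 of 9 genes with such an intron, against 4.60% of the 21598 protein-coding genes with a complete CDS. The 5′ untranslated region is 406 bases in Csf1-001, 173 in Csf1-004, 179 in Csf1-002 and 184 in Csf1-006. No exon base of Csf1 is shared with another gene on either strand. Its nearest coding neighbours are Ahcyl1, 44487 bases downstream on the same strand, and Eps8l3, 116759 bases upstream and head to head, with a processed pseudogene 21386 bases upstream.

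Il34 has a small protein in a large gene. It is on chromosome 8 (minus strand) at 110741829 to 110805924. Its span of 64096 bases exceeds that of 82.1% of protein-coding genes, and its CDS of 235 codons exceeds that of 21.9%. The first intron, of 50083 bases, takes up 78.1% of the span and lies within the 5′ untranslated region of 562 bases, which is longer than in 94.3%. Of 5 transcripts, 2 have a CDS and both are complete. Il34-002 shares 5 whole coding exons with Il34-001 and has an extra exon of 118 bases, not a multiple of 3. This exon lies between coding exons 4 and 5 of Il34-001, so the shared coding exon 5 is read in another frame in Il34-002. In the last exon 1 CDS base is left in Il34-002, where Il34-001 has 167, and the CDS of Il34-002 ends at 219 codons. Csf1 and Il34 were thus the 2 of 9 genes with more than 1 different complete CDS, against 36.8% of the 21598 genes.

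Il34 is covered on the opposite strand at 2 places. The antisense models Gm15894 and Gm15895 lie over 22 and 75 of its exon bases. Its 3′ end is 428 bases from that of Mtss1l, tail to tail, and Sf3b3, which encodes a splicing factor subunit, lies 4567 bases upstream on the same strand.

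Csf2 and Csf3 are the compact members. Both are on chromosome 11, Csf2 at 54247271 to 54249667 (minus strand) and Csf3 at 98701263 to 98703629 (plus strand), 44451595 bases apart. Their spans of 2397 bases for Csf2 and 2367 bases for Csf3 exceed those of 13.3% and 13.2% of protein-coding genes. Csf2 has 4 exons and 141 codons, and Csf3 has 5 exons and 208 codons. The 5′ untranslated regions are 57 bases in Csf2 and 117 in Csf3, and the 3′ untranslated regions 317 bases in Csf2 and 669 in Csf3. The RefSeq start of Csf2 lies 232 bases upstream of the deposited one, so the 57 bases hold for the deposited start only. Each has a single transcript, as do Csf2ra, Csf2rb and Csf2rb2, which makes 5 of 9 genes against 37.7% of the 21598 genes. The transcripts of Csf2ra, Csf2rb and Csf2rb2 come only from the automatic Ensembl source, unlike those of Csf2 and Csf3. Whether their single transcripts reflect the genes or the depth of annotation was not tested.

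The neighbours of Csf2 and Csf3 differ in kind. Upstream of Csf2, on the same strand and 15635 bases away, is Il3, whose protein signals through the same beta chain. Il5, the other cytokine of that beta chain, is on the same chromosome 522164 bases on the far side. The antisense model Gm12223 runs over 96 exon bases of Csf2. Downstream, the nearest model is the lincRNA 4933405E24Rik at 33985 bases, and the nearest coding gene is P4ha2 at 115605 bases. Csf3 lies between housekeeping genes, Psmd3 (a proteasome subunit) 5283 bases upstream on the same strand and Med24 (a Mediator subunit) 961 bases downstream and tail to tail, and shares no exon base with either.

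**Figure D2:**
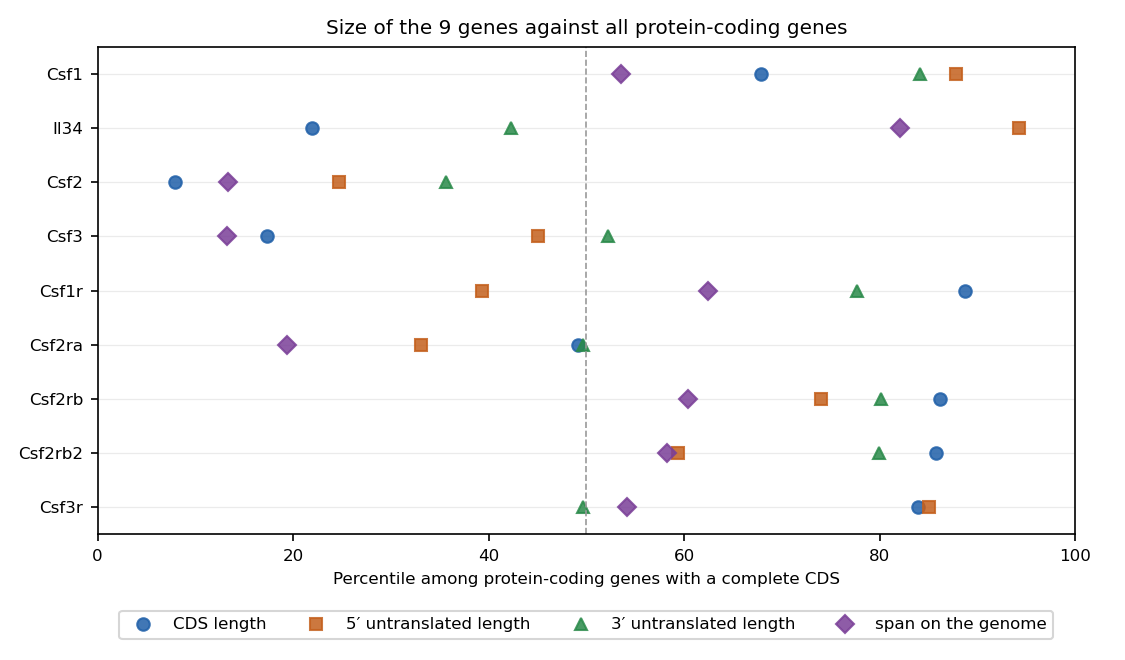
Percentile of each of the 9 genes among 21598 protein-coding genes with a complete CDS, for CDS length, 5′ and 3′ untranslated length and span; ligands are the upper 4 rows and the dashed line is the median gene. Csf2 and Csf3 sit low in CDS and span, and Il34 is low in CDS but high in span and 5′ untranslated length.

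Over the 9 genes the median CDS was 552 codons, against 395 over all 21598 genes, and 5 of 9 were above that median. The median 5′ untranslated length was 175 bases, against 134, and the median 3′ untranslated length 669 bases, against 608.5. The annotated untranslated lengths therefore scattered around those of protein-coding genes at large. With the transcript of the longest complete CDS standing for each gene, 5 of 9 had an intron in the 5′ untranslated region, against 32.0%. These were Il34, Csf2ra, Csf2rb, Csf2rb2 and Csf3r. Csf1r was not counted because Csf1r-201 stood for it, although Csf1r-001 has 1 such intron, as does the incomplete Csf1-005.

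Intron phase, the number of bases of a codon that stand before an intron, was counted in ligands and receptors. Of the 19 coding introns of the 4 ligands 14 were of phase 0, and of the 68 of the 5 receptors 34 were of phase 1 and 18 of phase 0. Csf2rb and Csf2rb2, whose 12 phases are the same, both enter the receptor counts. Over the coding introns of all protein-coding genes, 45.4% were of phase 0, 32.4% of phase 1 and 22.2% of phase 2. Most coding introns were of phase 0 in 4 of 9 genes, the 4 ligands, against 32.0% of the 18111 genes with a coding intron. Most were of phase 1 in 2 of 9, Csf1r and Csf3r, against 19.8%. The 3 coding introns of Csf2 are all of phase 0, as are the 4 of Il3 and the 3 of Il5.

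Csf1 shares the layout of its first coding exons with Kitl, the ligand of the related receptor Kit. The phases of the first 5 coding introns are 0, 0, 0, 0 and 1 in both genes. Coding exon 3 has 63 bases and coding exon 4 has 171 bases in both, while coding exons 1, 2 and 5 have 39, 123 and 148 bases in Csf1 and 15, 114 and 157 bases in Kitl. Kitl also has an intron in its 3′ untranslated region. In Flt3l, the ligand of Flt3, these 5 exons have 33, 114, 54, 144 and 129 bases and the 5 phases are all 0.

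Csf1r, the receptor of M-CSF and IL-34, is on chromosome 18 (plus strand) at 61105572 to 61132149. Its 2 transcripts encode the same 977 codons, a CDS above that of 88.7% of protein-coding genes, in 21 coding exons, and differ at both ends. Csf1r-001 begins 280 bases before Csf1r-201 with a non-coding first exon, and has 282 bases of 5′ untranslated sequence where Csf1r-201 has 98. At the 3′ end Csf1r-201 runs 1015 bases further, with 1669 bases of 3′ untranslated sequence where Csf1r-001 has 654.

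That longer 3′ end meets the neighbouring gene. Hmgxb3, which encodes an HMG-box protein, lies on the opposite strand from 61131279 to 61177050, tail to tail with Csf1r. Csf1r-201 overlaps it by 871 bases, all of them exon in both genes and 52.2% of the 3′ untranslated region of Csf1r-201, while Csf1r-001 ends 144 bases short of it. Csf1r, Il34, Csf2 and Csf2rb were the 4 of 9 genes with an exon base under an exon of the opposite strand, against 22.0% of 22159 protein-coding genes. The sources used here do not say whether counting used the strand; without it, reads from these bases cannot be told apart.

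**Figure D3:**
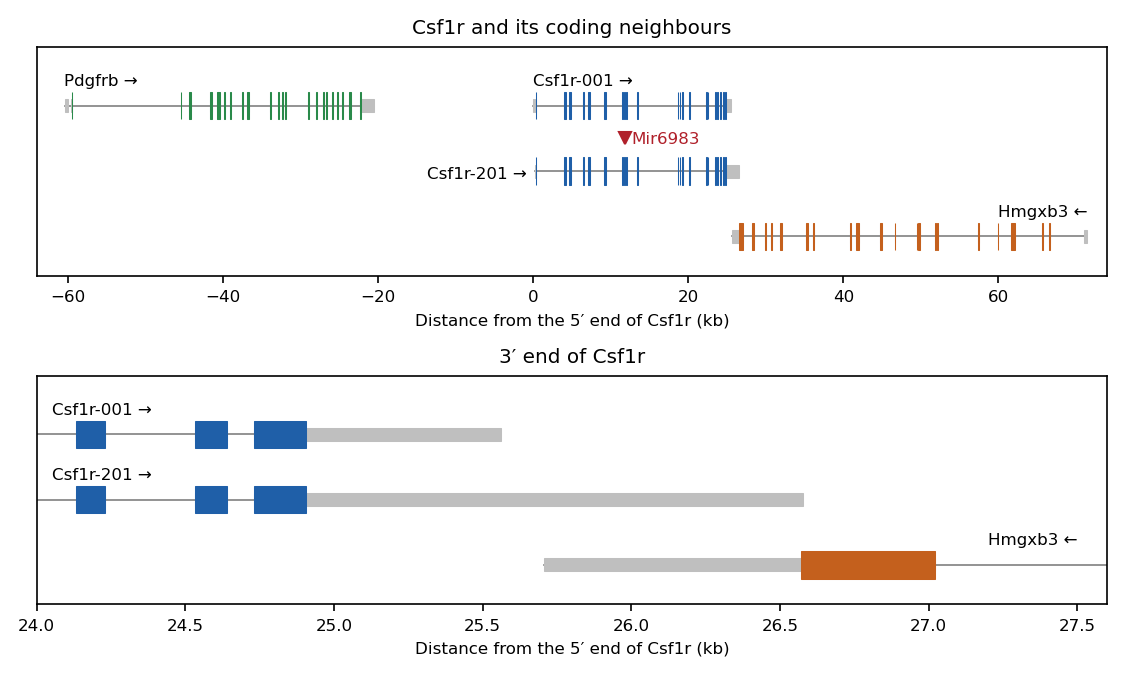
Csf1r with its coding neighbours Pdgfrb and Hmgxb3 (top) and its 3′ end enlarged (bottom), to scale in kb from the 5′ end of Csf1r; thick boxes are CDS, thin grey boxes untranslated exons, arrows the direction of transcription. The 3′ end of Csf1r-201 overlaps the 3′ end of Hmgxb3 by 871 bases, and Csf1r-001 stops 144 bases before it.

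Upstream of Csf1r on the same strand, 20510 bases away and with 0 coding genes between them, is Pdgfrb, a receptor of platelet-derived growth factor and a member of the same class III kinase family. Pdgfra and Kit on chromosome 5 stand in the same way, 376700 bases apart with 0 coding genes between. Inside Csf1r, intron 8 of Csf1r-201 is 119 bases long, and the microRNA gene Mir6983 takes its last 64 bases, so that it ends where the next exon begins. It shares no exon base with Csf1r.

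The 20 coding intron phases of Csf1r were the same, in the same order, in Kit, and they were also found whole in Pdgfra and Pdgfrb. Among the 2040 protein-coding genes with as many coding introns, 4 held this order, 0.196%, and they were Csf1r, Kit, Pdgfra and Pdgfrb. Kit matched over all 20 introns, Pdgfra has 1 more after them, and Pdgfrb has 1 before and 1 after. Flt3, which has 23 coding introns, matched at 19 of 20 when the 3′ ends were lined up. Of the 19 inner coding exons of Csf1r, 9 have exactly the length of their counterpart in Kit, 6 in Pdgfra, 6 in Pdgfrb and 5 in Flt3. The 5 lengths common to all of them are 105, 111, 123, 112 and 100 bases, in the later part of the gene. The remaining inner exons differ from those of Kit, Pdgfra and Pdgfrb by whole codons, which the equal phases on both sides of each exon require.

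**Figure D4:**
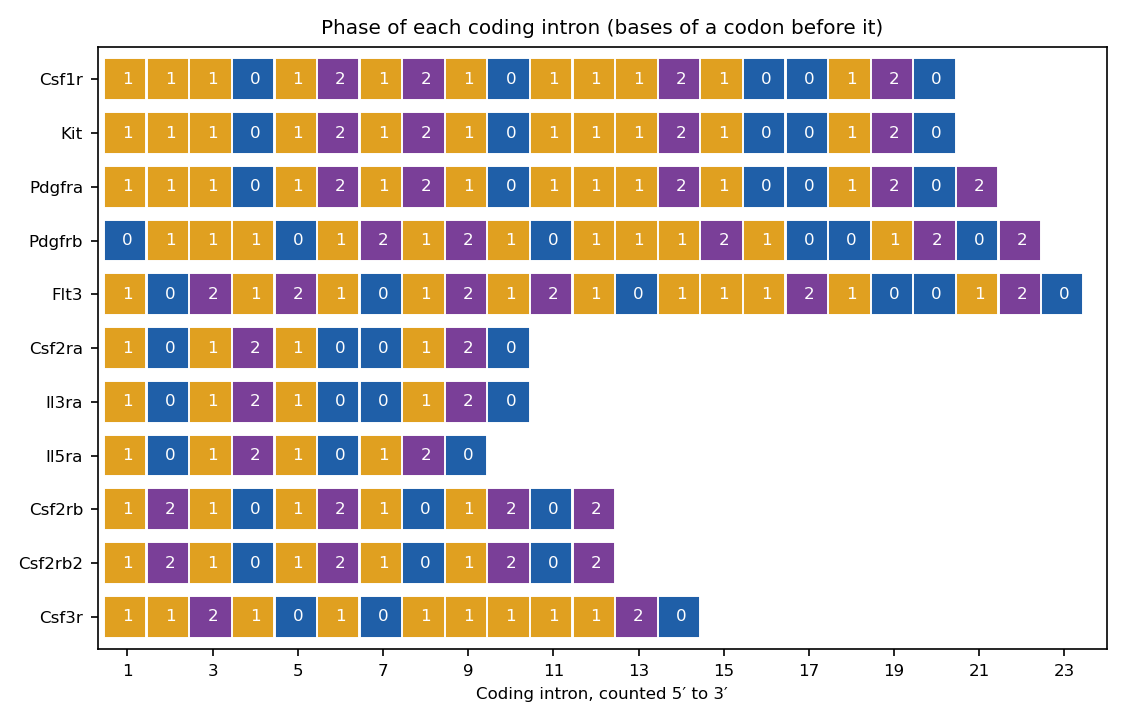
Phase (0, 1 or 2, in colour and number) of each coding intron, counted 5′ to 3′, in the 5 receptor genes and 6 related genes, rows starting at the first coding intron. Csf1r and Kit have the same 20 phases, Pdgfrb repeats them 1 intron later, and Csf2ra and Il3ra have the same 10.

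Csf2ra, the GM-CSF alpha chain, is on chromosome 19 (minus strand) at 61224402 to 61228418, close to the end of the annotated chromosome. Of the 1162 gene models there, 2 lie beyond it, Gm21060 and the added model LOC633188, and the last annotated base is 77002 bases away. Its 12 exons and 388 codons take up 4017 bases of genome, above the span of 19.4% of protein-coding genes, and its smallest coding exon has 27 bases. The 5′ untranslated region has 80 bases and the 3′ untranslated region 602. No exon base is shared on either strand, and its nearest coding neighbours are Gm6020 at 40446 bases and Gm21060 at 68483 bases.

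The 10 coding intron phases of Csf2ra were those of Il3ra, the IL-3 alpha chain on another chromosome, in the same order. Of 9 inner coding exons 3 have equal lengths in both, 155, 130 and 30 bases. The other 6 differ by whole codons, which the equal phases require. Il5ra has 9 coding introns and the same order less 1 of 2 adjacent introns of phase 0. Among 6479 genes with as many coding introns, 5 held the Csf2ra order, 0.0772%. These were Csf2ra, Il3ra and Il13ra1, which encode cytokine receptor chains, and Lamb1 and Lamb3, which encode laminin chains; the last 3 were named after the search was seen.

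Csf2rb and Csf2rb2, the beta chain genes, lie next to each other on chromosome 15 but not in tandem. Csf2rb is on the plus strand from 78325990 to 78351000 and Csf2rb2 on the minus strand from 78282517 to 78305603. Their 5′ ends face each other across 20386 bases that hold 0 gene models. Ncf4, which encodes a subunit of the phagocyte NADPH oxidase, is 19936 bases beyond the 3′ end of Csf2rb2, and Tex33 27399 bases beyond that of Csf2rb.

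The 2 genes have the same plan. Csf2rb encodes 896 codons and Csf2rb2 878, each in 13 coding exons, and the 12 coding intron phases are the same. Coding exons of equal length number 9 of 13. In coding exon 2 Csf2rb has 124 bases and Csf2rb2 127, in exon 7 Csf2rb has 161 and Csf2rb2 158, in exon 8 Csf2rb has 140 and Csf2rb2 137, and in exon 13 Csf2rb has 1111 and Csf2rb2 1060. All 4 differences are whole codons, which the equal phases require, and the last one, of 51 bases, makes up most of the difference in length. Among 5092 genes with as many coding introns, 2 held this phase order, 0.0393%, namely these 2.

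**Figure D5:**
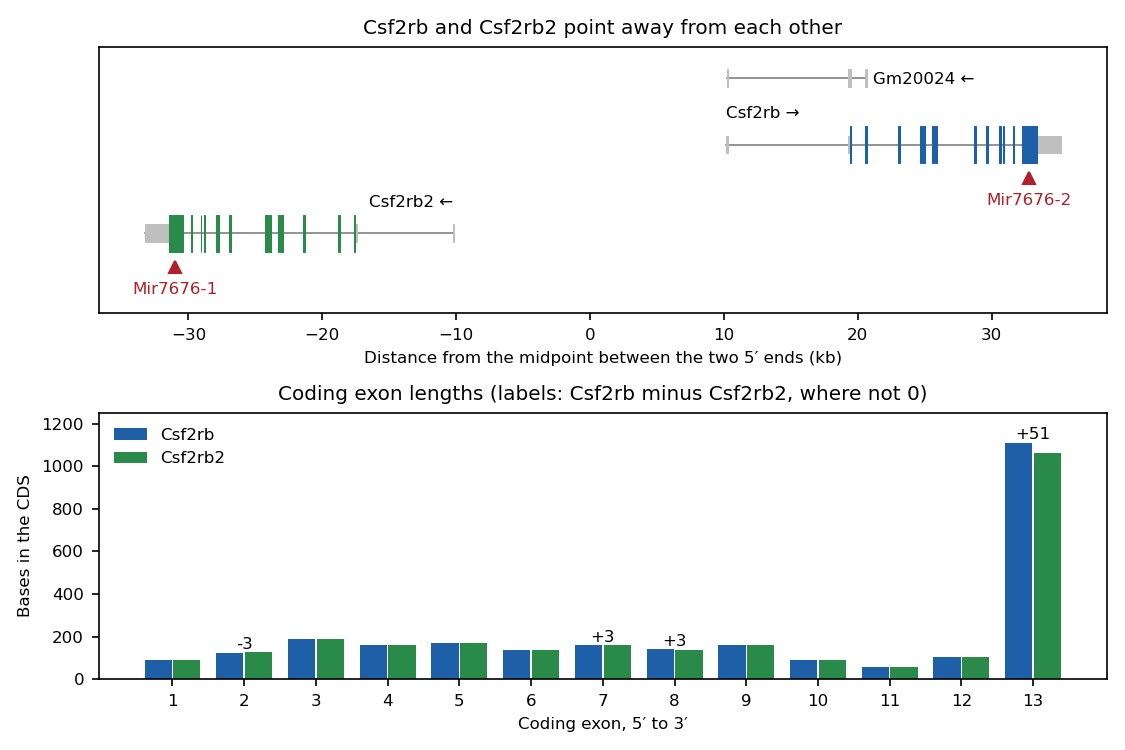
Top, Csf2rb and Csf2rb2 to scale in kb from the midpoint between their 5′ ends, with the microRNA genes (triangles) and the opposite-strand model Gm20024; bottom, bases of CDS in each of the 13 coding exons. The genes point away from each other, carry a Mir7676 copy in their last coding exon, and have equal lengths in 9 of 13 coding exons.

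The introns match as well. Of 13 introns 4 have exactly the same length in Csf2rb and Csf2rb2 and 12 are within 10%. The exception is the first, with 8959 bases in Csf2rb and 7199 in Csf2rb2, a ratio of 1.24. The untranslated regions differ more at the 5′ side, with 258 bases in Csf2rb and 175 in Csf2rb2, than at the 3′ side, with 1815 bases in Csf2rb and 1800 in Csf2rb2. The 5′ difference lies in exon 1, of 109 bases in Csf2rb and 26 in Csf2rb2, and depends on the annotated starts. The RefSeq start of Csf2rb2 lies 118 bases upstream of the deposited one, and none was at hand for Csf2rb.

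The microRNA genes stand at matching places in the pair. Mir7676-2, from 78348599 to 78348660, begins 527 bases into the last coding exon of Csf2rb, and Mir7676-1, from 78284788 to 78284849, begins 530 bases into that of Csf2rb2. Both begin after the first base of a codon. Csf2rb and Csf2rb2 were the 2 of 9 genes with same-strand exon bases in common with another gene, against 13.3% of 22159 protein-coding genes, and the bases shared were the 62 of each microRNA gene. A microRNA gene wholly inside a coding exon was present in the same 2 of 9 genes, against 0.120% (26 of 21598). Because the hairpins are identical and the 2 host genes have the same plan, these are not 2 separate cases. Since the 62 bases are the same in both copies, a read lying within them fits Csf2rb, Csf2rb2 and both microRNA genes alike. The sources used here do not say how the authors treated such reads. On the opposite strand of Csf2rb, the added model Gm20024 has 391 of its 407 exon bases over exons of Csf2rb.

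Csf3r, the G-CSF receptor gene, is on chromosome 4 (plus strand) at 126024550 to 126044440. Of its 4 transcripts 2 have a CDS, and both encode the same 837 codons in 15 coding exons. They differ at the 5′ end, where Csf3r-201 starts 2742 bases downstream of Csf3r-001 and has 45 bases of 5′ untranslated sequence against 365. The other 2 are processed transcripts with no CDS. No exon base is shared on either strand. Mrps15, which encodes a mitochondrial ribosomal protein, follows 2484 bases downstream on the same strand, and upstream the nearest gene model is the lincRNA 2610028E06Rik, which begins 102132 bases away and runs in the opposite direction.

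The 14 coding intron phases of Csf3r were found whole and in order in 5 of the 3992 genes with as many, 0.125%. Besides Csf3r these were Il6st, Lifr, Osmr and Il12rb2, which encode the shared signalling chain of the IL-6 family, the receptor chains for leukaemia inhibitory factor and oncostatin M, and an IL-12 receptor chain, and which were named after the search was seen. A run of phases 1, 2 and 0 stood near the 3′ end of the cytokine receptor genes and of the class III kinase genes alike. In Csf2ra and Csf3r, and in Il3ra and Il5ra, the last 3 coding introns have phases 1, 2 and 0, and in Csf2rb and Csf2rb2 the same run is followed by 1 more intron of phase 2. Csf1r, Kit and Flt3 also end in these 3 phases, and in Pdgfra and Pdgfrb the run is again followed by an intron of phase 2. In the cytokine receptor genes the exons inside it have 97 and 82 bases in Csf2ra, 91 and 82 in Csf3r, 91 and 58 in each beta chain gene, 103 and 67 in Il3ra, and 94 and 85 in Il5ra. The run was read off the phases of Csf2ra and was not planned beforehand. Csf2ra therefore holds it by choice, and the shares that follow are descriptions only. An ending in these 3 phases was present in 3 of 9 genes (Csf1r, Csf2ra and Csf3r), against 3.33% of the 15303 genes with at least 3 coding introns. The run at any place was present in 5 of 9 genes, the 5 receptors, against 22.8% of the same genes (3485 of 15303). Those genes need only 3 coding introns, whereas the 5 receptors have 10 to 20 and so more places for such a run. The share among genes with as many introns was not counted.

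Genes that act with these ligands and receptors were described the same way. The 4 cytokine and receptor genes of the shared beta chain (Il3, Il3ra, Il5 and Il5ra) have 1 transcript each, 0 share an exon base on the same strand and 1 is covered on the opposite strand. The 6 class III kinase and ligand genes have a median of 5.5 transcripts, 2 share exon bases on the same strand, 1 is covered on the opposite strand, and 5 have more than 1 different complete CDS. Of the 9 signalling genes (Jak1, Jak2, Lyn, Stat3, Stat5a, Stat5b, Socs3, Cbl and Tyrobp), which carry the signal inside the cell or restrain it and have a median of 3 transcripts, 0 share an exon base on the same strand and 5 are covered on the opposite strand. The colony-stimulating factor and receptor genes themselves have a median of 1 transcript, with 2 of 9 sharing on the same strand and 4 of 9 covered on the opposite strand. More than 1 different complete CDS was present in 0 of the 4 shared beta chain genes, 3 of the 9 signalling genes and 2 of these 9. Over protein-coding genes with a complete CDS, the median was 2 transcripts and 36.8% had more than 1 different complete CDS. Of all 22159 protein-coding genes, 13.3% shared on the same strand and 22.0% were covered on the opposite strand. No test was made between lists.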

How the data were processed

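Libraries were grouped from their labels. The deposited file is a gene annotation in which the authors gave start and end positions counted from 1, with 1544831 lines, 115521 transcripts and 0 lines with a score; these positions are the only values used, so depth per library is unknown here. Per the submitters' processing notes, TopHat2 version 2.1.1 and build mm10 were used; the sources used here do not say how the annotation was assembled. Gene models were read with Python 3.11.15, pandas 2.3.3 and numpy 2.4.6. The transcript with the longest complete CDS stood for a gene, ties going to the longer spliced one. Distances are gaps between spans. Percentiles are the share of protein-coding genes with a lower value. Intron phases equalled the deposited frame column at 87 of 87 member introns, and the scripts were tested on simulated models with known answers. Models of sources other than Ensembl are called added models. Named genes were the 9 genes, their nearest models on each side, genes sharing their exon bases, and 3 lists. Members and lists were chosen with earlier results of these data known. No test was run: positions have no replicates. Protein sequences were not used here.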

Additional observations from a re-analysis of the deposited data

How the results depend on the processing

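Gene models are single statements of an annotation, with no replicate error and no read depth, so the values below depend on definitions only. The 9 gene models were the same under synonyms or Ensembl sources only. The 23 transcripts became 17 with a CDS only and 18 without the automatic Ensembl source. Without that source Csf2ra, Csf2rb and Csf2rb2 have no transcript left, and Csf1r loses Csf1r-201, the one that overlaps Hmgxb3. Csf1 had 5 different coding sequences over all its transcripts and 3 when incomplete ones were left out. With the median over complete transcripts, the 5′ untranslated length was 181.5 bases in Csf1, 190 in Csf1r and 205 in Csf3r, and the 3′ untranslated length was 1185 bases in Csf1, because these genes have transcripts with other ends. Genes sharing exon bases numbered 5 on either strand, against 2 on the same strand. The distance of Csf1r to the nearest protein-coding gene was 0 bases by spans, 60422 bases between 5′ ends, and 144 bases from Csf1r-001 alone, a setting chosen after seeing the data. The other alternatives stayed within 1.5 times the value or within 1 percentile point. The comparison of Csf2rb and Csf2rb2 proteins, and the LPS comparisons with a left-out replicate, were not run, the first for want of a protein table. No paired analysis was possible because the file holds no values per library.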
